A study of Mus musculus with 17 samples.

Results

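Collagens are the structural proteins of the extracellular matrix, and the heart holds them as fibrils around its muscle bundles and as sheets under its endothelium and around each muscle cell. The collagen genes were taken as every protein-coding row of the gene count table whose symbol has the form of a collagen chain (Col, a type number, the letter a and a chain number), which gave 44 of 56748 genes. They were followed in RNA-seq libraries of 17 mouse hearts, 1 library per mouse, from animals aged 12 to 16 months. In the 9 hMut hearts (Polg hMut, genotype Polg iMut/iMut; +/Ckmm-cre) a muscle creatine kinase promoter drove cre in heart and skeletal muscle. There cre removed a floxed wild-type Polg cDNA cassette with its human growth hormone polyadenylation signal, so that the knock-in allele expressed POLG D257A, a mitochondrial DNA polymerase with impaired proofreading. The allele was made in C57BL/6N Tac embryonic stem cells. The 8 Ctrl hearts are labelled as controls, and the labels give neither their full genotype nor the sex of any mouse. A whole heart also holds many fibroblasts, endothelial cells and other cells in which this cre is not known to act, and in bulk RNA fewer cells of a type and less RNA per cell cannot be told apart.

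Each collagen chain is built from repeats of glycine and 2 further residues, and 3 such chains wind into a triple helix. Fibrillar collagens (types I, III, V and others) have a long unbroken helix and give tissue its tensile strength. Type IV collagens have many breaks in the repeat and form the flexible mesh of basement membranes. Network-forming types VI, VIII and X make beaded filaments or hexagonal sheets, and the fibril-associated collagens with interrupted triple helices (FACIT) sit on the surface of fibrils. In the heart, fibroblasts are known as the main source of fibrillar collagen, and endothelial and mural cells as sources of type IV.

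The coding sequences show these differences. Read from the GENCODE canonical transcripts on GRCm39, the longest unbroken run of glycine triplets was 338 in Col1a1 and 344 in Col3a1, but 40 in Col4a1 and 66 in Col4a2, whose repeat fell into 23 and 24 runs of at least 3 triplets. It was 87 in Col6a1, 61 in Col8a1 and 32 in the FACIT member Col12a1. Below, an exon of the fibrillar Col1a1 stands beside exons of the type IV genes Col4a1 and Col4a2, the pair on which the comparison between genotypes turned. Each is the in-frame part of 1 coding exon, 5′ to 3′ on the gene's strand, and the capitals mark the first bases (GG) of glycine codons that lie in a repeat. The Col1a1 exon (coding exon 8, chr11:94830730-94830783, plus strand) has 6 glycine triplets in a row. The Col4a1 exon (coding exon 31, chr8:11270983-11271093, minus strand) has 6 glycine codons before a break and 6 after it, and the Col4a2 exon (coding exon 40, chr8:11491882-11491995, plus strand) has 5 before and 5 after a longer break.
Col1a1: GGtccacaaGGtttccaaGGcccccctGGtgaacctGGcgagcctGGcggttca
Col4a1: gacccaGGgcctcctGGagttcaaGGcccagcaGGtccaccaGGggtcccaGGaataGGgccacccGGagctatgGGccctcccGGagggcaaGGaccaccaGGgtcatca
Col4a2: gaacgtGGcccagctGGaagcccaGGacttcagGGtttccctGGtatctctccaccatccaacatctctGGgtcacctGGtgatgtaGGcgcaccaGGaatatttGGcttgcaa

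Total counts lay between 32915159 and 46486964 per library. Levels are given as CPM, counts scaled by TMM to 1000000 per library. Polg itself was at 27.1 to 47.2 CPM in the Ctrl hearts (median 32.0) and at 47.0 to 65.1 CPM in the hMut hearts (median 59.6), with 8 of 9 hMut hearts above every Ctrl heart. The 10 cardiomyocyte markers were abundant in every heart, with summed levels of 34219 CPM or more. The libraries of hMut hearts 6 and 9 stood apart from the rest: 31.1% and 27.9% of all tested genes were above every Ctrl heart in them, against 10.9% to 17.7% in the other 7 hMut hearts. Many collagen estimates rest on these hearts, so log2 fold changes are also given without them where that moved the value by over 1.5 times.

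In the Ctrl hearts the type IV pair was the most abundant collagen RNA. Levels between genes are compared per kilobase of the gene length in the count table. How that length was defined is not stated, and it may differ from the length of the main transcript. Col4a1 stood at 51.2 CPM per kilobase and Col4a2 at 46.6, followed by Col3a1 (19.6), Col6a1 (16.6), Col15a1 (14.3) and Col1a1 (10.5). Col4a1, Col4a2 and Col3a1 together took 51.6% to 60.9% of all collagen CPM in a Ctrl heart and 55.0% to 64.6% in an hMut heart. The other type IV chains were much lower, from 5.66 CPM per kilobase for Col4a5 down to 0.21 for Col4a6. Among FACIT members Col14a1 (2.56) and Col16a1 (1.19) led, and in the class of remaining collagens Col18a1 (1.63) came after Col15a1. Both Col15a1 and Col18a1 encode the multiplexin proteoglycans of basement membrane zones. The collagen genes took 0.107% to 0.188% of all counts in the Ctrl hearts and 0.149% to 0.392% in the hMut hearts.

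**Figure D1:**
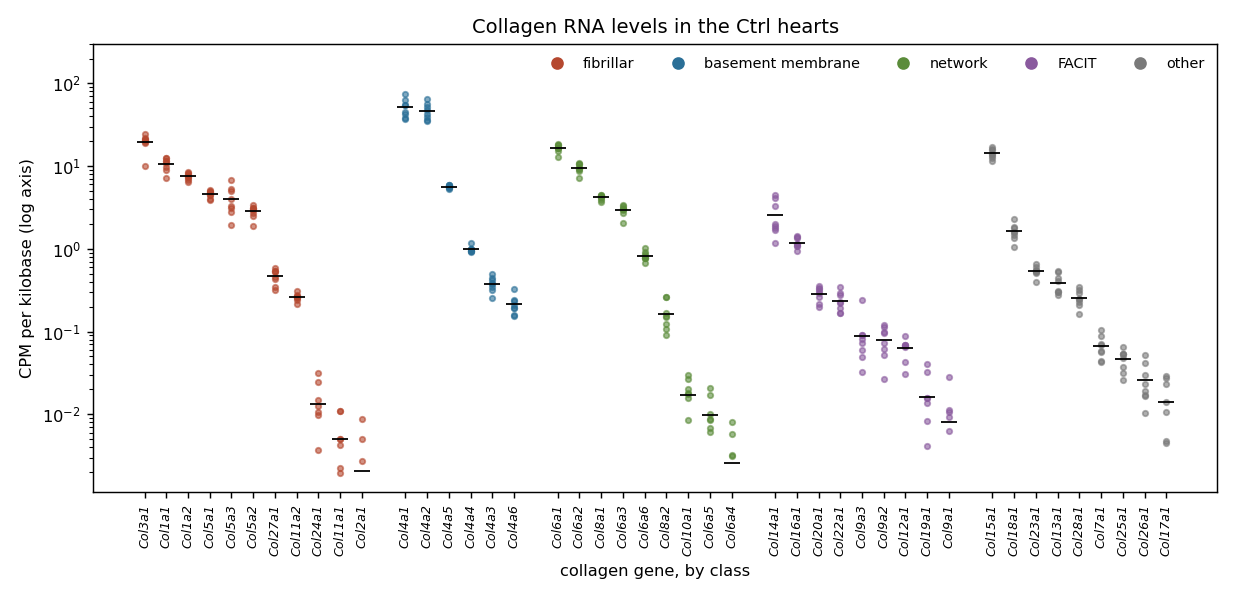
Level of each of the 44 collagen genes in the 8 Ctrl hearts in CPM per kilobase on a log axis, grouped by class. Points are hearts (hearts at 0 are not drawn) and the black dash is the mean of all 8. Col4a1 and Col4a2 are at the top and Col2a1 at the bottom.

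The question asked of the genotypes was whether collagen RNA differed between hMut and Ctrl hearts, and in which class. Of the 44 genes, 34 had enough counts to be tested with edgeR's quasi-likelihood test, in a fit over all 16195 tested genes with Benjamini-Hochberg adjustment. Only Col4a1 and Col4a2 passed an adjusted p of 0.05, both higher in hMut, and 0 were called lower. That is 5.88% of the tested collagen genes, against 3.48% of all tested genes called higher, 1.14% called lower and 4.62% called in either direction. At an unadjusted p under 0.05, 14 tested collagen genes (41.2%) were higher and 2 (5.88%) lower, against 14.5% and 11.3% of all tested genes. The median log2 fold change of the tested collagen genes was 0.25, against 0.0023 over all tested genes, and 24 were above 0 and 10 below. Without hMut hearts 6 and 9 the collagen median was 0.064 and 0 collagen genes were called, against 2.67% of all genes tested in that fit. DESeq2 called the same 2 collagen genes, against 9.19% of all genes it tested.

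**Figure D2:**
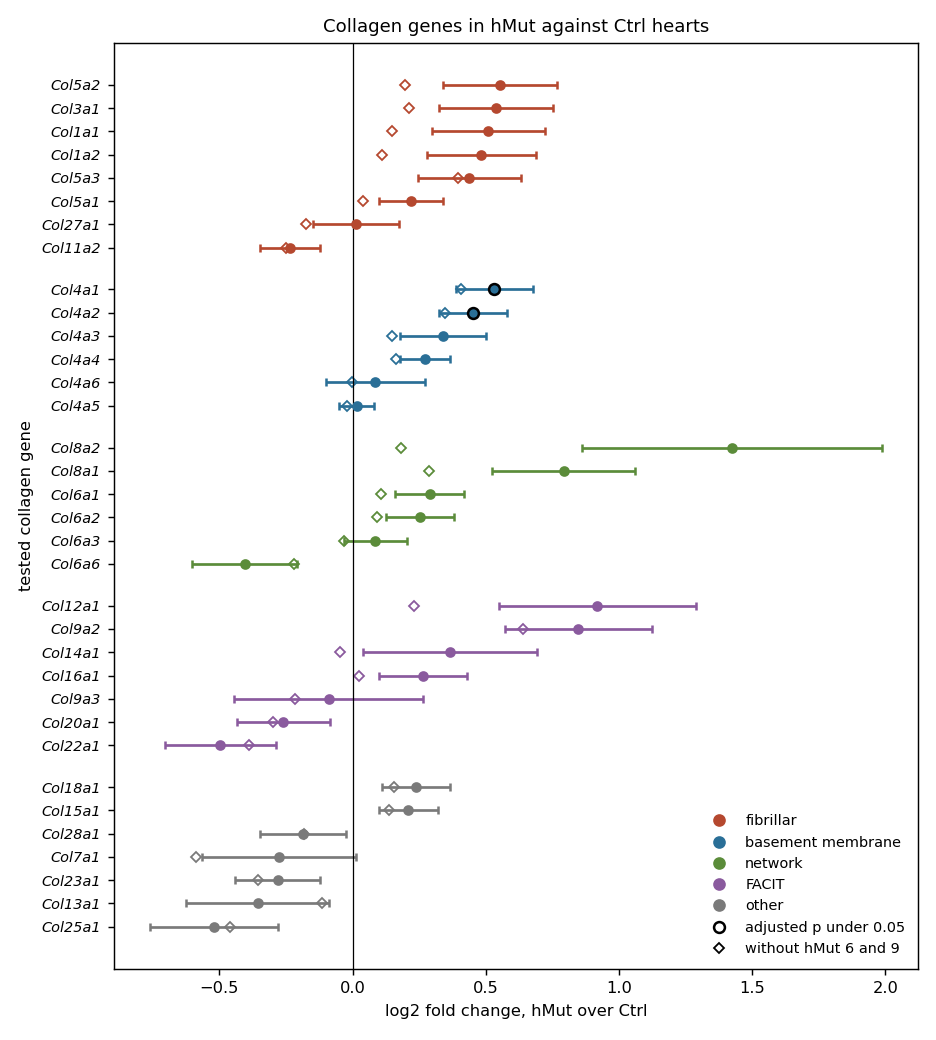
Log2 fold change of hMut over Ctrl hearts (x axis) for the 34 tested collagen genes, by class. Filled points with bars are the edgeR estimate ± SE over 17 hearts, black rims mark an adjusted p under 0.05, and open diamonds are the estimates without hMut hearts 6 and 9. Col4a1 and Col4a2 carry black rims, and the diamonds of most fibrillar and network genes lie closer to 0 than the points.

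By class, the basement membrane genes gave the only calls (2 of 6 tested). The fibrillar (8 tested), network (6), FACIT (7) and remaining collagens (7) gave 0 calls each. Genes at an unadjusted p under 0.05 numbered 5 fibrillar, 4 basement membrane, 3 network, 3 FACIT (2 higher and 1 lower) and 1 of the remaining collagens (lower). The median log2 fold change was 0.46 for fibrillar, 0.31 for basement membrane, 0.27 for network and 0.26 for FACIT genes, and -0.28 for the remaining collagens. Without hMut hearts 6 and 9 these medians were 0.13, 0.15, 0.099, -0.047 and -0.18. The classes were not tested against each other.

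Col4a1 and Col4a2 encode the chains that join as 2 copies of the first and 1 of the second in the type IV collagen found in nearly all basement membranes, including those of capillaries and cardiomyocytes. Col4a1 was at 277 to 554 CPM in the Ctrl hearts (median 372) and at 421 to 754 CPM in the hMut hearts (median 552). The groups overlapped: 4 of 9 hMut hearts (5, 6, 7 and 9) were above every Ctrl heart, and Ctrl heart 1 alone was above most hMut hearts. The Ctrl hearts were themselves split. Ctrl hearts 1 to 4 were at 408 to 554 CPM, and Ctrl hearts 5 to 8 at 277 to 336 CPM, below every hMut heart. What set these Ctrl hearts apart was not tested. The fold change of Col4a1 was 1.45 (log2 0.53 ± 0.15 SE, edgeR adjusted p = 0.0438). Col4a2 followed the same order at 235 to 428 CPM (median 299) in Ctrl and 332 to 547 CPM (median 411) in hMut, again with hMut hearts 5, 6, 7 and 9 above every Ctrl heart. For Col4a2, Ctrl hearts 1 to 4 were at 318 to 428 CPM and Ctrl hearts 5 to 8 at 235 to 279 CPM. Its fold change was 1.37 (log2 0.45 ± 0.13 SE, edgeR adjusted p = 0.0487). These calls sat at the threshold. Both were kept when Ctrl heart 1 or 4 or hMut heart 1, 2 or 8 was left out, and both were lost when any other single heart was left out (Ctrl 2, 3, 5, 6, 7 or 8, or hMut 3, 4, 5, 6, 7 or 9), with edgeR adjusted p between 0.0549 and 0.0878 for Col4a1 and between 0.0619 and 0.0986 for Col4a2. The log2 fold change stayed between 0.47 and 0.63 for Col4a1 and between 0.40 and 0.53 for Col4a2 in those fits, and was 0.41 and 0.34 without hMut hearts 6 and 9 (edgeR adjusted p = 0.112 and 0.124).

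**Figure D3:**
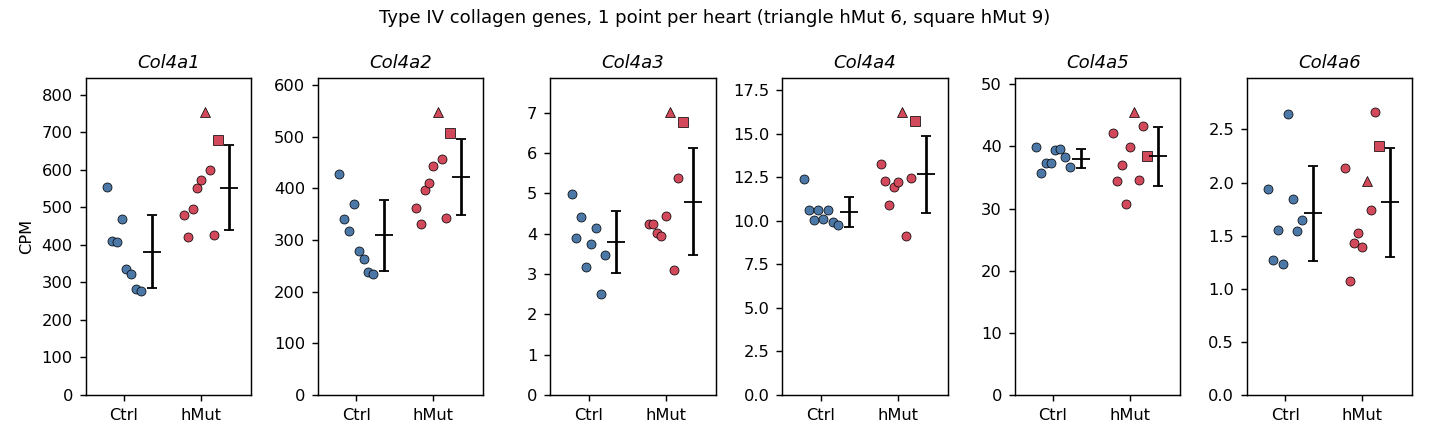
CPM (y axis, from 0) of the 6 type IV collagen genes in 8 Ctrl and 9 hMut hearts. Each point is a heart, triangles and squares are hMut hearts 6 and 9, and the bar is the mean ± SD of the group. Most hMut hearts lie in the upper part of the range for Col4a1 and Col4a2, while Col4a5 and Col4a6 cover similar ranges in both groups.

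The type IV genes lie in head-to-head pairs, each pair read away from a common start region. On GRCm39 the count table places Col4a1 at chr8:11248423-11362826 on the minus strand and Col4a2 at chr8:11362805-11499287 on the plus strand, so the annotated 5′ ends overlap by 22 bases in the first exons. Whether strand was used in counting is not stated in the sources used here, so reads in the overlap cannot be assigned with certainty. Windows from 250 bases before to 50 after the annotated start were searched on both strands for CCAAT, the GC box GGGCGG and the TATA box TATAAA. The Col4a1 window held 1 CCAAT and 1 GGGCGG match, the Col4a2 window held 1 and 3, and neither held TATAAA. Over the 21906 protein-coding windows, 39.2% held CCAAT, 43.0% GGGCGG and 12.7% TATAAA, and over the 44 collagen windows 38.6%, 52.3% and 13.6%. The stretches that hold the CCAAT matches and the GC box common to both genes are shown on each gene's strand, with the match in capitals. The CCAAT stretches lie at chr8:11362957-11362981 (Col4a1) and chr8:11362763-11362787 (Col4a2), and the GC box stretch at chr8:11362802-11362827.
Col4a1 CCAAT (reverse strand): cttgcccgggATTGGcgagccaagg
Col4a2 CCAAT: gaggagctccCCAATttgttggcgc
Col4a1 GC box (reverse strand): cttggagacgCCGCCCgcgcactgcc
Col4a2 GC box: ggcagtgcgcGGGCGGcgtctccaag

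The ratio of the pair was also taken within each heart. Col4a1 over Col4a2, per kilobase, was 1.05 to 1.15 in the Ctrl hearts (median 1.08) and 1.10 to 1.22 in the hMut hearts (median 1.16), and 5 of 9 hMut hearts (1, 4, 6, 7 and 9) were above every Ctrl heart. Col4a1 over Col4a5 was 6.66 to 12.5 in Ctrl (median 8.75) and 8.89 to 16.2 in hMut (median 12.9), with 5 of 9 hMut hearts above every Ctrl heart.

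The other type IV pairs passed no test. Col4a3 and Col4a4, chains of the type IV collagen best known from the kidney filter, lie head to head on chromosome 1 with 71 bases between them. Col4a4 was at 9.73 to 12.4 CPM in Ctrl (median 10.3) and 9.11 to 16.2 CPM in hMut (median 12.3), with 4 of 9 hMut hearts above every Ctrl heart (log2 fold change 0.27 ± 0.094 SE, edgeR adjusted p = 0.0917, and 0.16 without hearts 6 and 9). Without hMut heart 7 alone it was the only collagen gene called. Col4a3 was at 2.51 to 4.99 CPM in Ctrl (median 3.82) and 3.10 to 7.01 CPM in hMut (median 4.25), with hMut hearts 6 and 9 highest (log2 fold change 0.34 ± 0.16 SE, edgeR adjusted p = 0.193, and 0.15 without them). The X-linked pair Col4a5 and Col4a6 has 1308 bases between its starts. Col4a5 was at 35.6 to 40.0 CPM in Ctrl (median 37.8) and 30.7 to 45.5 CPM in hMut (median 38.4), a log2 fold change of 0.015 ± 0.065 SE (edgeR adjusted p = 0.902), with 3 hMut hearts above and 3 below every Ctrl heart. Col4a6 was at 1.23 to 2.64 CPM in Ctrl (median 1.60) and 1.07 to 2.66 CPM in hMut (median 1.74), a log2 fold change of 0.085 ± 0.19 SE (edgeR adjusted p = 0.795). Without hMut hearts 6 and 9 both turned sign, to -0.023 for Col4a5 and -0.0024 for Col4a6.

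Among fibrillar collagens, Col1a1 and Col1a2 encode type I, the main load-bearing fibril of the heart, and Col3a1 encodes type III, which forms thinner fibrils with it. Col3a1 was at 98.1 to 238 CPM in the Ctrl hearts (median 203) and at 173 to 571 CPM in the hMut hearts (median 247), with 5 of 9 hMut hearts above every Ctrl heart. The highest values belonged to hMut heart 6 (571 CPM) and heart 9 (383 CPM), and the other 7 lay between 173 and 253 CPM. Its log2 fold change was 0.54 ± 0.21 SE (edgeR adjusted p = 0.133), and 0.21 without hearts 6 and 9 (adjusted p = 0.421).

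Col1a1 was at 46.6 to 81.8 CPM in Ctrl (median 73.4) and at 64.7 to 213 CPM in hMut (median 82.7). Heart 6 was at 213 CPM and heart 9 at 136 CPM, while the other 7 hMut hearts, at 64.7 to 87.0 CPM, overlapped the Ctrl range. The log2 fold change of Col1a1 was 0.51 ± 0.21 SE (edgeR adjusted p = 0.145), and 0.15 without those hearts (adjusted p = 0.465). The partner chain Col1a2 ran from 79.8 to 106 CPM in Ctrl and from 78.9 to 292 CPM in hMut. The ratio of the 2 type I chains overlapped between the groups: Col1a1 over Col1a2 per kilobase was 1.11 to 1.61 in Ctrl and 1.25 to 1.58 in hMut, and 1.38 and 1.44 in hearts 6 and 9.

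Type V collagens sit inside type I fibrils and control their width. Col5a2, the fibrillar gene with the smallest adjusted p, was at 18.4 to 32.7 CPM in Ctrl (median 28.7) and 23.1 to 86.6 CPM in hMut (median 31.5). Heart 6 (86.6 CPM) and heart 9 (54.5 CPM) were again highest, and the log2 fold change was 0.55 ± 0.21 SE (edgeR adjusted p = 0.123), and 0.20 without them (adjusted p = 0.345). Col5a1 covered 33.3 to 44.4 CPM in Ctrl and 34.8 to 71.8 CPM in hMut. Col5a3 differed in pattern: its hMut hearts, at 24.9 to 46.0 CPM, stayed within the Ctrl range of 13.4 to 46.5 CPM, and no hMut heart was above every Ctrl heart. Ctrl hearts 5 to 8, at 13.4 to 22.2 CPM for Col5a3, lay below every hMut heart. The 8 tested fibrillar log2 fold changes ran from -0.23 (Col11a2) to 0.55 (Col5a2), with 7 above 0.

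**Figure D4:**
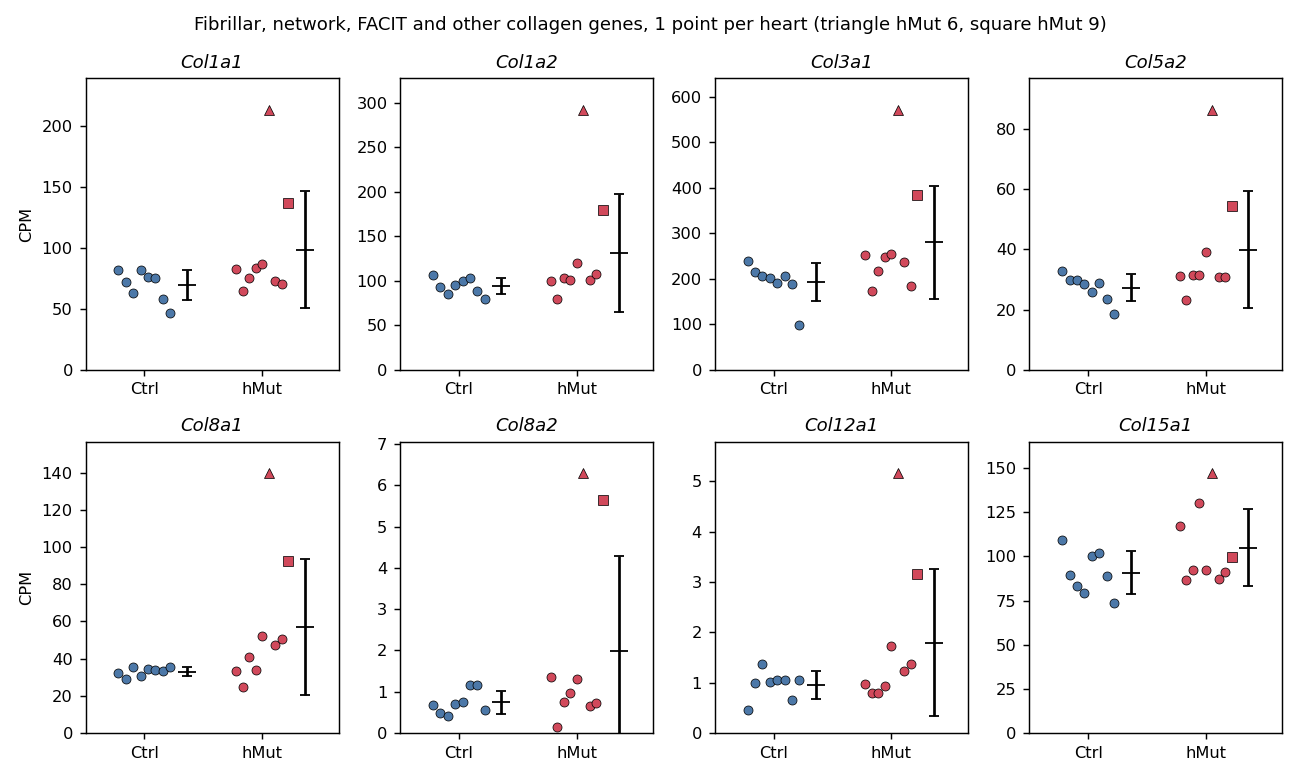
CPM (y axis, from 0) of 8 fibrillar, network, FACIT and remaining collagen genes in 8 Ctrl and 9 hMut hearts. Each point is a heart, triangles and squares are hMut hearts 6 and 9, and the bar is the mean ± SD, cut at 0 for Col8a2 in hMut. In all but Col15a1 hearts 6 and 9 are the highest of the 17.

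In the network class, Col8a1 and Col8a2 encode type VIII, the hexagonal lattice of vessel walls and of the cornea. Col8a1 was at 28.9 to 35.5 CPM in Ctrl (median 33.6), a narrow range, and at 24.6 to 140 CPM in hMut (median 47.3). In hMut, 6 of 9 hearts were above every Ctrl heart, 4 of them besides hearts 6 (140 CPM) and 9 (92.4 CPM), and 1 was below every Ctrl heart. For Col8a1 the log2 fold change was 0.79 ± 0.27 SE (edgeR adjusted p = 0.0882) and 0.29 without hearts 6 and 9 (adjusted p = 0.218). Leaving out hMut heart 2 alone brought Col8a1 and the FACIT gene Col9a2 past the threshold. Col8a2 had the highest log2 fold change of the family, 1.42 ± 0.56 SE (edgeR adjusted p = 0.13). It was low, at 0.41 to 1.17 CPM in Ctrl (median 0.69) and 0.14 to 6.30 CPM in hMut (median 0.98). Hearts 6 (6.30 CPM) and 9 (5.66 CPM) carried that value, since the other 7 hMut hearts lay between 0.14 and 1.35 CPM and the log2 fold change without hearts 6 and 9 was 0.18.

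Type VI collagen, a beaded filament that anchors muscle cells in their matrix, is built from Col6a1, Col6a2 and Col6a3. Col6a1 was at 56.6 to 81.8 CPM in Ctrl (median 73.2) and 70.9 to 152 CPM in hMut (median 78.4), a log2 fold change of 0.29 ± 0.13 SE (edgeR adjusted p = 0.171). Col6a2 was at 60.5 to 89.7 CPM in Ctrl (median 79.0) and 69.6 to 158 CPM in hMut (median 87.6), a log2 fold change of 0.25 ± 0.13 SE (edgeR adjusted p = 0.219). Both were highest in hMut heart 6, and the other hMut hearts reached up to 99.2 CPM for Col6a1 and 100.1 CPM for Col6a2. Without hearts 6 and 9 the log2 fold changes were 0.11 for Col6a1 (adjusted p = 0.429) and 0.091 for Col6a2 (adjusted p = 0.576). Col6a3 ran from 24.4 to 40.5 CPM in Ctrl and from 29.5 to 49.7 CPM in hMut. Col6a6, at 6.20 to 9.43 CPM in Ctrl and 2.08 to 8.56 CPM in hMut, had 4 hMut hearts below every Ctrl heart and the lowest log2 fold change of the class, -0.41. Hearts 6 (2.08 CPM) and 9 (3.88 CPM) were its lowest, and without them the log2 fold change was -0.22 (edgeR adjusted p = 0.366).

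FACIT members were mostly low. Col14a1, which binds fibrils and is typical of fibroblasts, was at 8.33 to 31.3 CPM in Ctrl (median 13.6) and 8.31 to 48.9 CPM in hMut (median 17.6), a log2 fold change of 0.36 ± 0.33 SE (edgeR adjusted p = 0.485), and -0.047 without hearts 6 and 9. Col16a1 was at 6.36 to 9.58 CPM in Ctrl (median 7.65) and 5.75 to 17.1 CPM in hMut (median 8.69), a log2 fold change of 0.26 ± 0.16 SE (edgeR adjusted p = 0.309), and 0.025 without those hearts (adjusted p = 0.933). Col12a1, associated with tendon and tissue under load, was at 0.46 to 1.36 CPM in Ctrl and reached 5.16 and 3.16 CPM in hMut hearts 6 and 9, the other 7 being at 0.79 to 1.73 CPM.

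Col9a2, a chain of the cartilage FACIT type IX, had the smallest adjusted p of the class. It was at 0.082 to 0.37 CPM in Ctrl (median 0.26) and at 0.27 to 0.83 CPM in hMut (median 0.40), with 6 of 9 hMut hearts above every Ctrl heart (log2 fold change 0.85 ± 0.28 SE, edgeR adjusted p = 0.0786). These levels rest on at most 35 counts in a heart. Col22a1, a FACIT of muscle-tendon junctions, was at 1.55 to 3.18 CPM in Ctrl and 0.95 to 2.83 CPM in hMut, with 6 of 9 hMut hearts below every Ctrl heart. It had the lowest log2 fold change of the class, -0.50, and was called lower when hMut heart 8 was left out.

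The remaining collagens are the multiplexins (Col15a1, Col18a1), the transmembrane collagens (Col13a1, Col17a1, Col23a1, Col25a1), the anchoring-fibril collagen Col7a1, Col26a1 and Col28a1. Col15a1 was at 73.8 to 109 CPM in Ctrl (median 89.3) and 86.7 to 147 CPM in hMut (median 92.5), a log2 fold change of 0.21 ± 0.11 SE (edgeR adjusted p = 0.233), and 0.14 without hearts 6 and 9. Col18a1, the source of endostatin, was at 7.41 to 16.3 CPM in Ctrl (median 11.3) and 11.3 to 16.9 CPM in hMut (median 13.3), a log2 fold change of 0.24 ± 0.13 SE (edgeR adjusted p = 0.237), and 0.15 without them. The other 5 tested genes had log2 fold changes below 0. Col25a1 was the lowest of the family at -0.52 ± 0.24 SE (edgeR adjusted p = 0.182), with 0.34 to 0.85 CPM in Ctrl (median 0.66) and 0.18 to 0.60 CPM in hMut (median 0.42). For Col13a1, Col23a1 and Col7a1, 4, 3 and 3 hMut hearts were below every Ctrl heart, and 0, 1 and 1 were above every Ctrl heart.

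The 10 collagen genes that were not tested were Col2a1, Col11a1 and Col24a1 (fibrillar), Col6a4, Col6a5 and Col10a1 (network), Col9a1 and Col19a1 (FACIT), and Col17a1 and Col26a1. They include the main cartilage collagens types II and X. Their counts ran from 0 to 17 in a heart, and the highest level was 0.42 CPM, for Col26a1. In the edgeR fit with no low-count filter, 0 of the 10 were called and 1 (Col9a1) had an unadjusted p under 0.05. Counts in this range carry counting error on top of the spread between hearts, and a floor of 3 counts covers counting error only.

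Summed over all 44 genes, collagen RNA was at 1159 to 2005 CPM in the Ctrl hearts (median 1568) and 1555 to 3405 CPM in the hMut hearts (median 2000). Hearts 6 and 9 were at 3405 and 2645 CPM, and the other 7 hMut hearts at 1555 to 2057 CPM, so that 4 of 9 were above every Ctrl heart. The class sums differed in how far they rested on those hearts. Fibrillar sums were 298 to 556 CPM in Ctrl and 416 to 586 CPM in the other 7 hMut hearts, against 1281 and 868 CPM in hearts 6 and 9. Basement membrane sums were 564 to 1042 CPM in Ctrl and 804 to 1105 CPM in the other 7, against 1371 and 1249 CPM. Network sums were 185 to 249 CPM in Ctrl and 211 to 275 CPM in the other 7, against 509 and 347 CPM.

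**Figure D5:**
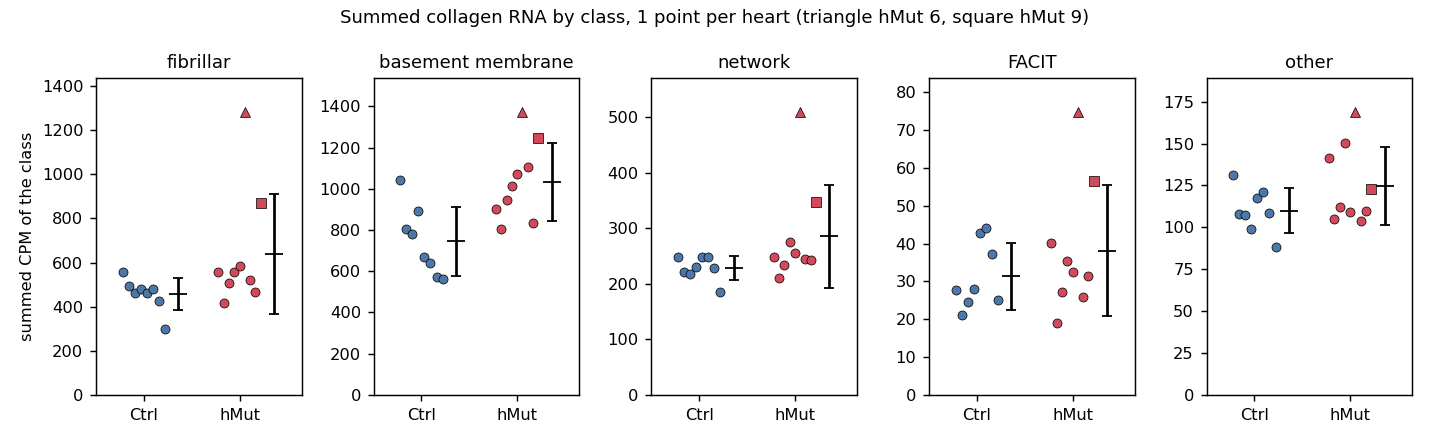
Summed CPM of each collagen class (y axes, from 0) in 8 Ctrl and 9 hMut hearts. Each point is a heart, triangles and squares are hMut hearts 6 and 9, and the bar is the mean ± SD of the group. Heart 6 is the highest of the 17 in all 5 panels.

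Genes were also counted heart by heart. In each of hMut hearts 6 and 9, 21 of 34 tested collagen genes were above every Ctrl heart, against 31.1% and 27.9% of all tested genes. By class these were 6 fibrillar, 5 basement membrane, 5 network, 4 FACIT and 1 of the remaining genes in heart 6, and 6, 4, 5, 4 and 2 in heart 9. In the other 7 hMut hearts the count ran from 0 (heart 2, against 10.9% of all tested genes) to 13 (heart 5, against 16.0%). Genes below every Ctrl heart numbered 4 in each of hearts 6 and 9, against 28.8% and 26.6% of all tested genes. In the other hMut hearts they numbered 2 to 7, against 10.4% to 17.3% of all tested genes. Heart 6 was the highest of the 17 hearts for 20 of the 34 genes and heart 9 for 3. Among hMut hearts, heart 2 was the lowest for 16 of the 34. The highest and lowest hearts were not counted over all tested genes, so these counts are not read as particular to collagen genes.

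Several marker lists moved with these hearts, and their part in the collagen values was not tested. Over all tested genes edgeR called 3.48% higher and 1.14% lower. At an unadjusted p under 0.05 these shares were 14.5% and 11.3%. The summed level of 10 valve, tendon and cartilage markers was 10.3 to 15.2 CPM in Ctrl and 12.5 to 24.7 CPM in the other 7 hMut hearts, against 60.8 and 69.7 CPM in hearts 6 and 9, and 3 of its 5 tested genes were called higher. A single gene, Comp, reached 48.7 CPM in hMut, against at most 9.15 CPM in the other 7. Chad, Acan, Tnmd, Cilp2 and Matn3 had too few counts to be tested. The 8 macrophage markers summed to 153 to 206 CPM in Ctrl, 177 to 215 CPM in the other 7, and 608 and 342 CPM in hearts 6 and 9, with 0 of 8 called by edgeR or by DESeq2, and 5 of 8 higher at an unadjusted p under 0.05. The 6 atrial markers summed to 45.0 to 168 CPM in Ctrl, 80.2 to 246 CPM in the other 7, and 727 and 475 CPM in hearts 6 and 9. Of its 4 tested genes 1 was called higher, while the atrial genes Sln and Myl7 were near 0 in every heart. The called gene, Bmp10, was at 0.082 to 0.37 CPM in Ctrl. In the other 7 hMut hearts it was at 0.61 to 17.2 CPM, and 9 of 9 hMut hearts were above every Ctrl heart. Its log2 fold change was 5.58 (edgeR adjusted p = 3.25e-05), and 5.15 without hearts 6 and 9 (edgeR adjusted p = 4.06e-05). Nppa, which the paper uses as a cardiac stress marker, made up most of the atrial sum, at up to 164 CPM in Ctrl and 685 CPM in hMut. Cardiomyocyte markers summed to 44389 to 53528 CPM in Ctrl, 43501 to 51846 CPM in the other 7 hMut hearts, and 36988 and 34219 CPM in hearts 6 and 9, so that 5 of 9 hMut hearts were below every Ctrl heart. Of these 10 markers edgeR called 0 (6 lower at an unadjusted p under 0.05), DESeq2 called 4 lower and limma-voom 5 lower.

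The 10 fibroblast markers summed to 1609 to 2076 CPM in Ctrl and to 1750 and 1714 CPM in hearts 6 and 9, but 1 gene, Gsn, made up much of this sum. Without Gsn the sum was 795 to 937 CPM in Ctrl and 1059 and 1060.1 CPM in hearts 6 and 9. In each of those hearts 7 of the 10 markers were above every Ctrl heart and 2 below. The median log2 fold change of the list was 0.13. edgeR called 0 of 10 (4 higher at an unadjusted p under 0.05), DESeq2 called 2 higher (Tcf21 and Mfap5) and limma-voom 1 (Tcf21).

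Endothelial and mural cells are known to make type IV collagen, and the part of their markers in Col4a1 and Col4a2 was not tested. Endothelial markers had a median log2 fold change of 0.11, and summed to 987 to 1229 CPM in Ctrl and 1053 to 1419 CPM in hMut, with hMut hearts 4, 5, 7 and 9 above every Ctrl heart. Of these 10 markers, 2 were called higher by edgeR, against 3.48% of all tested genes, and are named here after their values were seen. They were Cldn5, an endothelial tight-junction gene (1.52-fold, adjusted p = 0.0388), and Kdr, a receptor for VEGF (1.31-fold, adjusted p = 0.0407). Each had 6 of 9 hMut hearts above every Ctrl heart. Without hMut hearts 6 and 9 neither was called by edgeR, though the estimates moved little. For Cldn5 the log2 fold change was 0.61 over all hearts and 0.55 without those 2 (edgeR adjusted p = 0.0801). For Kdr it was 0.39 over all hearts and 0.40 without them (edgeR adjusted p = 0.0546). The list median without them was 0.12. Over all hearts limma-voom called 5 of the 10 markers higher, with 2081 genes called in all, and DESeq2 called 2, with 1502 in all. Mural markers had a median of 0.12, with 1 of 10 called higher, and summed to 1235 to 1530 CPM in Ctrl and 1063 to 1615 CPM in hMut. The epicardial list was low, at 2.90 to 6.73 CPM in Ctrl and 4.70 to 12.5 CPM in hMut, with 1 of 3 tested genes called higher. Glial and lymphoid markers gave 0 calls with edgeR and with DESeq2, with medians of -0.27 and 0.10, and 0 and 2 of them had an unadjusted p under 0.05. Without hMut hearts 6 and 9 those medians were -0.13 and -0.72, so the lymphoid median turned sign.

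Collagen chains need enzymes and chaperones in the endoplasmic reticulum before the helix can fold and be secreted. Of 30 genes on the list for these steps, 29 were tested, 2 were called higher (6.90%, against 3.48% of all tested genes) and 0 lower (against 1.14%), with a median log2 fold change of 0.082. Without hMut hearts 6 and 9 that median was 0.046. P3h2, a prolyl 3-hydroxylase that acts mainly on type IV collagen, was at 2.75 to 4.24 CPM in Ctrl (median 3.50) and 3.60 to 13.3 CPM in hMut (median 6.06). In hMut, 8 of 9 hearts were above every Ctrl heart, and the log2 fold change was 1.01 ± 0.21 SE (edgeR adjusted p = 0.00977). That call was kept whichever single heart was left out, and without hearts 6 and 9 (log2 fold change 0.69, edgeR adjusted p = 0.00661). Of the 10 alternative fits other than the single-heart ones, 9 kept it, and the highest edgeR adjusted p among them was 0.0564.

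P4ha1, a catalytic subunit of prolyl 4-hydroxylase, which stabilises the helix of all types, was at 61.4 to 88.2 CPM in Ctrl (median 73.1) and 65.6 to 113 CPM in hMut (median 88.6), with 5 of 9 hMut hearts above every Ctrl heart. Its log2 fold change was 0.36 ± 0.097 SE (edgeR adjusted p = 0.0398). The call was kept only when Ctrl heart 4 or hMut heart 1, 2, 4 or 8 was the heart left out. It was lost without Ctrl 1, 2, 3, 5, 6, 7 or 8 or hMut 3, 5, 6, 7 or 9 (edgeR adjusted p between 0.0537 and 0.0835), while the log2 fold change stayed between 0.32 and 0.41. Without hearts 6 and 9 together it was 0.27 (edgeR adjusted p = 0.102).

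Among 9 tested collagen receptors, 2 were called higher and 0 lower, against 3.48% and 1.14% of all tested genes, with a median log2 fold change of 0.23. Without hMut hearts 6 and 9 that median was 0.13. Itga1, the integrin subunit with a preference for type IV collagen, was at 48.0 to 63.3 CPM in Ctrl (median 58.1) and 61.3 to 76.2 CPM in hMut (median 68.4), with 6 of 9 hMut hearts above every Ctrl heart. Its log2 fold change was 0.26 ± 0.067 SE (edgeR adjusted p = 0.0357). It was lost without Ctrl 2, 5, 6 or 7 or hMut 3, 4, 5, 6, 7 or 9 (adjusted p between 0.0532 and 0.0746) and kept without any of the other hearts, with log2 fold changes of 0.23 to 0.28, and was 0.23 without hearts 6 and 9 together (adjusted p = 0.0908).

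Ddr1, a receptor tyrosine kinase that is activated by collagen, was at 22.6 to 26.1 CPM in Ctrl (median 24.0) and 23.1 to 32.2 CPM in hMut (median 28.0), with 8 of 9 hMut hearts above every Ctrl heart. The genotypes differed by a log2 fold change of 0.20 ± 0.055 SE (edgeR adjusted p = 0.0425). The call was kept only without Ctrl 4, hMut 1 or hMut 2, and was lost without any other single heart (adjusted p between 0.0511 and 0.0832), with log2 fold changes of 0.17 to 0.23 over these fits. Without hearts 6 and 9 together it was 0.18 (edgeR adjusted p = 0.0708).

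Small leucine-rich proteoglycans coat fibrils and set their spacing. Of 9 tested, Fmod (fibromodulin) was called higher and 0 lower, against 3.48% and 1.14% of all tested genes, with a list median of 0.24. Without hMut hearts 6 and 9 the list median was 0.11. Fmod was at 0.45 to 1.84 CPM in Ctrl (median 1.05) and 1.002 to 6.94 CPM in hMut (median 2.25), with 5 of 9 hMut hearts above every Ctrl heart, and it is also on the valve and tendon list. The log2 fold change was 1.44 ± 0.39 SE (edgeR adjusted p = 0.0413). It was lost without Ctrl 1, 2, 3, 4, 5, 6 or 8 or hMut 6, 7 or 9 (adjusted p between 0.0522 and 0.0811) and kept without any of the other hearts, and was 0.81 without hearts 6 and 9 (adjusted p = 0.122).

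Laminins, nidogens and heparan sulphate proteoglycans share the basement membrane with type IV collagen. Of 14 tested, 0 were called higher and 1 lower, against 3.48% and 1.14% of all tested genes, with a median log2 fold change of 0.066. The gene called lower was Lama5, a laminin chain of mature vessel and muscle basement membranes, at 89.1 to 117 CPM in Ctrl (median 101) and 60.3 to 95.4 CPM in hMut (median 79.7). Its log2 fold change was -0.36 ± 0.080 SE (edgeR adjusted p = 0.0169), opposite in sign to Col4a1 and Col4a2. The call was kept whichever single heart was left out, and without hMut hearts 6 and 9 (edgeR adjusted p = 0.0236).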

How the data were processed

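RNA from 17 mouse hearts (8 Ctrl, 9 hMut) was enriched for polyadenylated transcripts and sequenced on a NovaSeq X Plus. Per the labels and methods, the authors ran fastp, HISAT2 (2.2.1, GRCm39) and featureCounts (2.0.6). The deposited table holds unnormalized read counts for each gene. Groups came from the labels. P-values measure the spread between single hearts.

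Counts were tested with edgeR (4.0.16, R 4.3.3): quasi-likelihood test, TMM, filterByExpr, genotype as the only term, Benjamini-Hochberg adjustment over all tested genes and a threshold of 0.05. Each SE was derived from the log2 fold change and its F statistic. The test was first tried on simulated data. Sex, read from sex-linked genes, served only in an alternative fit. Total counts of 32915159 to 46486964 limit precision for genes of few counts.

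Full statistics were given to collagen genes under the threshold, the 2 most abundant per kilobase and the smallest adjusted p of each class, the highest and lowest log2 fold change, and all type IV genes, and to at most 4 called genes of each partner list. Other members were named with levels. Members and lists were chosen with earlier results of these data known. Coordinates and sequences are GRCm39, with GENCODE vM39 transcripts. Alternatives were other normalizations, filters and tools, a sex term, a replicate block, and hearts left out.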

Additional observations from a re-analysis of the deposited data

Results flagged for a closer look

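Highest and lowest hearts were compared with the rest of their group for the 34 tested collagen genes, 68 groups in all, and 9 gene values, from 5 different hearts, lay far from the others of their group by Dixon's test at the 95% level. Chance flags about 1 group in 20. In hMut heart 6, Col1a1 (213.4 CPM), Col1a2 (292.0 CPM), Col5a2 (86.56 CPM), Col6a1 (152.3 CPM) and Col6a2 (158.3 CPM) stood far above the other 8 hMut hearts. In hMut heart 9, Col7a1 was at 1.397 CPM, the highest of its group. Among Ctrl hearts, heart 8 had the lowest Col3a1 (98.08 CPM), heart 1 the highest Col4a4 (12.42 CPM) and heart 5 the highest Col9a3 (0.9163 CPM).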

How the results depend on the processing

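The direction of Col4a1 and Col4a2 was the same in all 27 alternative fits, but the calls were not. The counts of collagen genes called higher and of basement membrane collagens called were 2 in the DESeq2, limma-voom, RLE, mean-count and protein-coding fits. They were 1 with upper-quartile normalization (Col4a2 at 0.4333, adjusted p = 0.0571), 1 with sex as a covariate (Col4a2 at 0.4183, adjusted p = 0.0556) and 0 with no low-count filter (Col4a1 0.5336, Col4a2 0.4521). Without hMut 6 and 9 together both counts were 0, Col4a1 was 0.406 and Col4a2 0.345 on the log2 scale, and the median over tested collagen genes was 0.064. With limma-voom that median was 0.1117. All genes called numbered 749, against 1502 with DESeq2, 2081 with limma-voom, 463 with no low-count filter and 431 without hMut 6 and 9. Collagen biosynthesis genes called were 4 with limma-voom and 1 with sex as a covariate.

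Leaving out 1 heart at a time gave 395 to 1792 genes called, 0 to 4 collagen genes called higher, 0 to 1 called lower, 0 to 2 basement membrane, 0 to 1 network, 0 to 1 FACIT and 1 to 6 biosynthesis genes called, and log2 fold changes of 0.4659 to 0.627 for Col4a1 and 0.3969 to 0.5317 for Col4a2. The 4 collagen genes called without hMut heart 2 were Col4a1, Col4a2, Col8a1 and Col9a2. Values near 0 changed sign: Col14a1 (-0.0473), Col4a5 (-0.0231) and Col4a6 (-0.0024) without hMut 6 and 9, Col4a5 (-0.0319) and Col4a6 (-0.0338) with limma-voom, Col4a5 (-0.0018) with upper-quartile normalization, and, in the single-heart fits, Col4a5 (from -0.0184 to 0.0511) and Col4a6 (from -0.0005 to 0.2008). The causes were not tested.

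Replicate numbers name different mice in the 2 groups, and the labels give no pairing. Same-numbered hearts deviated from their group means with correlations between -0.225 and 0.339, which cannot decide whether the hearts were paired. In a fit with a replicate block, hMut heart 9 has no Ctrl heart of its number and so adds nothing to the genotype estimate. With a replicate block 195 genes, 0 collagen genes, 0 basement membrane collagens and 0 biosynthesis genes were called, with Col4a1 at 0.5049 and Col4a2 at 0.4261 on the log2 scale.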
